A study of Mus musculus with 16 samples.

Results

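Interferon-stimulated genes, the antiviral genes that cells switch on when they sense interferon, were followed in CD4+ T cells from mouse spleen. The list held 39 genes chosen by name from the type I and type II interferon responses, and the brightest of a gene's detected probes stood for it. A probe could be named for 37 of them, all 37 lay well above background on all 16 arrays, and they were read within a test of 14675 genes. The remaining 2, Mx1 and Mx2, had no probe named through the tables used and were not analysed here.

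RNA was hybridised to 1-colour Agilent arrays, 1 array per sample, from male mice aged 8 to 10 weeks. All of them had Cre recombinase driven by the CD4 promoter, which is active from a stage of thymocyte development onward. T cells that passed through that stage are subject to it. In NEMOfl/fl mice with CD4cre (NEMO knockout, also written NEMOfl/f in the labels) the gene of the regulatory subunit of the IkB kinase complex was deleted in such cells, and 2 arrays came from mice with nephrotoxic serum nephritis (NTN) and 2 from untreated mice. In IKK2fl/fl mice with CD4cre (IKK2 knockout) the gene of a catalytic subunit of that complex was deleted, and 3 arrays came from nephritic and 3 from untreated mice. Controls carried CD4cre without a floxed gene (Cre controls), with 3 nephritic and 3 untreated arrays. Nephritis was induced by an intraperitoneal dose of 2.5 mg of sheep serum against glomeruli for each g of body weight, and cells were taken on day 10. CD4+ cells were enriched with a kit and then sorted.

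Levels are given as the log2 of the processed spot intensity after subtraction of each array's 75th percentile, so that 0 is the intensity at that percentile. Differences are log2 differences of group means with the standard error (SE) of 1 limma model over all arrays, and the adjusted p is limma's, adjusted by Benjamini-Hochberg over 14675 genes, with a threshold of 0.05. A gene is said to rise or fall where it passed. The number of arrays, 2 or 3 in a group, limits the precision. Separate animals are not stated for the samples of a group, so a p value reflects no more than sample-to-sample spread, part of which may be technical.

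Interferons of type I bind a receptor that activates Janus kinases, which phosphorylate STAT proteins. With IRF9 these form a complex that binds the interferon-stimulated response element (ISRE) in target promoters, whereas interferon gamma acts through STAT dimers at gamma-activated sites (GAS). The products sense foreign RNA and DNA, tag proteins with ISG15, degrade or sequester viral RNA and attack vacuoles of parasites. The IkB kinase complex, to which NEMO and IKK2 belong, releases NF-kB and also takes part in the induction of interferon genes, and T cells keep many of the interferon-stimulated genes at a tonic level.

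Promoters were read from RefSeq on GRCm38.p6, as windows of 300 bases around a start site, most of it upstream, and 28 of the 37 measured genes had an entry. The ISRE core was searched as GAAA, any 2 bases and GAAA again, on both strands and with overlapping matches counted apart, and stood in 18 of the 28 (64.3%), against 3.99% of 27025 genes with a promoter. The GAS letters TTCNNNGAA stood in 10 of the 28 (35.7%), against 9.55% of all genes. The kappa-B consensus, to which NF-kB binds, was found in 3 of the 28, those of Bst2, Irf1 and Oasl1, against 5.14% of all genes. A match describes letters only. The promoters below belong to genes that fell (Ifit3, Ifit1 and Isg15) or rose (Oas3, Gbp3 and Ifitm3) in NEMO knockout cells, and capitals mark each match to the ISRE core. Ifit3 lies on the plus strand (chr19:34583279-34583578), Ifit1 on the plus strand (chr19:34640639-34640938), Isg15 on the minus strand (chr4:156200769-156201068), Oas3 on the minus strand (chr5:120777610-120777909), Gbp3 on the plus strand (chr3:142559794-142560093) and Ifitm3 on the minus strand (chr7:141010695-141010994).
Ifit3: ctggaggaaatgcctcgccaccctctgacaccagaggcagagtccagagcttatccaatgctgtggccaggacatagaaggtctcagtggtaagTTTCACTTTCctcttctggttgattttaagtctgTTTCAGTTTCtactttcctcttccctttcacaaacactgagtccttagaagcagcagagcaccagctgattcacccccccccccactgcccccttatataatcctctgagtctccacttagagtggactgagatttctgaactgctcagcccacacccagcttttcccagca
Ifit1: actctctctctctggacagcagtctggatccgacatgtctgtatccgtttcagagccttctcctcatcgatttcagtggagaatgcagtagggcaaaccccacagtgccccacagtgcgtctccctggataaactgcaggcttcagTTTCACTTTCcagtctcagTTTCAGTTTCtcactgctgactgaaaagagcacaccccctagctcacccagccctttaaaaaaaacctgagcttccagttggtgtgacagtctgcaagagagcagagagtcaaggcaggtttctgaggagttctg
Isg15: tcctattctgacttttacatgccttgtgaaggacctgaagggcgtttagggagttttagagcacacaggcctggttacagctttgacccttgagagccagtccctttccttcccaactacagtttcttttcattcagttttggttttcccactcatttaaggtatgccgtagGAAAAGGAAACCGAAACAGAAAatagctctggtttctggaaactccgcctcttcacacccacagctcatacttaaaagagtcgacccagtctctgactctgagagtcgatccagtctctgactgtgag
Oas3: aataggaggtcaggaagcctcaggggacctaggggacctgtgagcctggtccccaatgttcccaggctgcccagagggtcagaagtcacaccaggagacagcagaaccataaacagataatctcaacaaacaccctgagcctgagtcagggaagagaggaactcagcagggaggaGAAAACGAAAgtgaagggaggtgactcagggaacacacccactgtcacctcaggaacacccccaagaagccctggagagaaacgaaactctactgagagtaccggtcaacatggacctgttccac
Gbp3: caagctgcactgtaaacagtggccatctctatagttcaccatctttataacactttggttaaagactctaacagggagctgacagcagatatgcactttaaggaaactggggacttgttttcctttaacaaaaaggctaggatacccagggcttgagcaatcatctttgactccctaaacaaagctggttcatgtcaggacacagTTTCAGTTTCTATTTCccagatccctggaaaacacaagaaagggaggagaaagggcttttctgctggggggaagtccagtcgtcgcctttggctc
Ifitm3: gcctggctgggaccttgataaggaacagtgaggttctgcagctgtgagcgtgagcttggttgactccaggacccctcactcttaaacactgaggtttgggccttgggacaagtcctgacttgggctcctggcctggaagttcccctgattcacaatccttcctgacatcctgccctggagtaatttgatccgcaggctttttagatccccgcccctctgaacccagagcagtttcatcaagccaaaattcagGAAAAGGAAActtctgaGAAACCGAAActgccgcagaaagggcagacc
The cores of Ifit3 began 156 and 122 bases before the start site and those of Ifit1 104 and 85 bases before it. In Isg15 they began 78, 72 and 66 bases upstream and overlapped, in the printed window of Gbp3 45 and 39 bases upstream (a second Gbp3 start window, chr3:142560106-142560405, held none), and in Oas3 a single core began 75 bases upstream. The matches of Ifitm3 lay just downstream of its start. Each printed promoter held the ISRE core letters, so these promoters do not show how often genes of either direction carry them. Some genes with an entry fell in nephritic NEMO knockout cells relative to nephritic Cre controls. Of these, Ifit1, Ifit3, Isg15, Ddx58 and Trim21 had a match. Ifit2, Oasl1, Irf9, Irf1 and Ifi44, which fell as well, had none within their windows. Of the genes that rose in the same comparison, Oas3, Gbp3, Ifitm3 and Bst2 each had a match. Oas2, Usp18, Gbp4, Zbp1 and Rtp4, which fell too, had no promoter entry.

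Ikbkg, which encodes NEMO, read -0.71 and -0.59 on the nephritic and -0.94 and -0.74 on the untreated NEMO knockout arrays, against -0.26, -0.40 and -0.26 on nephritic and -0.85, -0.74 and -0.52 on untreated Cre arrays. It differed from Cre by -0.34 with nephritis (SE 0.11, adjusted p = 0.0196) and by -0.13 without (SE 0.11, adjusted p = 0.337). Ikbkb, which encodes IKK2, read 3.02, 2.95 and 2.91 on nephritic and 3.31, 2.88 and 2.99 on untreated IKK2 knockout arrays, against 3.27, 3.45 and 3.18 on nephritic and 3.29, 3.31 and 3.30 on untreated Cre arrays, with adjusted p of 0.134 and 0.162. Ikbkb also fell in NEMO knockout cells, by 0.48 with nephritis and by 0.35 without (limma adjusted p 0.00653 and 0.0371). Ikbkg read higher in untreated IKK2 knockout cells than in untreated Cre controls, by 0.68 (SE 0.10, adjusted p = 0.00152). Whether these probes lie in the deleted part is not known here, so the readings do not check the deletion, and the knockouts are named by their labels.

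The arrays came from 3 slides, each with a single scan. All 4 NEMO knockout arrays shared slide 3, so the NEMO genotype and its slide cannot be told apart. Slide 1 held the 3 nephritic Cre arrays, the 3 nephritic IKK2 knockout arrays and untreated IKK2 knockout replicates 1 and 2, and slide 2 the 3 untreated Cre arrays and untreated IKK2 knockout replicate 3. Nephritic Cre replicate 2 stood apart on the third principal component, at 67.4 against -19.4 to 11.5 elsewhere, and untreated Cre replicate 1 had a coefficient of variation between replicate spots of 21.1%, against 9.09% to 11.6%. All 10 T cell markers, Cd4 and Cd3e among them, were well above background on every array, and their mean stayed within -0.21 to 0.16 of the untreated Cre mean. Single T cell markers did differ in NEMO knockout cells. With nephritis 5 of the 10 fell (the lowest at -0.93), and without it 4 fell and 1 rose (-0.59 to 0.62). Those shares were near the 48.4% and 43.0% of all genes that passed. Between IKK2 knockout and Cre cells none of the 10 passed in either condition, where 2.58% of all genes passed with nephritis and 14.6% without. The means of markers of other cells differed more. The mean of 9 macrophage and monocyte markers lay 3.12 to 3.66 above that of untreated Cre arrays on nephritic and 2.86 to 3.20 on untreated NEMO knockout arrays, 1.82 to 2.17 and 2.56 to 3.24 on nephritic and untreated IKK2 knockout arrays, and 0.36 to 2.32 on nephritic Cre arrays. Of these 9 markers, 9 were well above background on all arrays of both NEMO groups, against 2 on all untreated Cre arrays, where 3 were above it on none. For 10 B cell markers the differences were 1.21 to 1.51, 1.78 to 2.05, 1.54 to 2.0, 2.02 to 2.56 and 0.48 to 1.40 in the same order of groups. Ms4a1 and Cd22 were well above background on every array, while Pax5 was above it on no NEMO knockout and no Cre array. For 9 dendritic cell markers, of plasmacytoid cells too, the differences were 3.29 to 3.48, 2.54 to 2.94, 1.81 to 2.46, 1.48 to 2.32 and -0.61 to 2.30, and for 9 neutrophil markers 3.41 to 5.23, 0.55 to 1.45, 2.88 to 5.03, 1.29 to 1.87 and 1.21 to 3.79. For 10 markers of CD8 T and NK cells they were 1.15 to 1.18, 0.62 to 0.96, -0.37 to 0.38, 0.28 to 0.53 and -0.34 to 0.52, for 8 erythroid markers 1.87 to 2.46, 0.27 to 0.73, 1.73 to 2.33, 0.43 to 2.04 and 0.30 to 4.46, and for 9 immediate early and stress genes 0.14 to 0.55, -0.05 to 0.19, 0.37 to 0.79, 0.46 to 0.70 and -0.04 to 0.26. Such cells also express interferon-stimulated genes, and their part in the differences that follow was not tested. In bulk samples, fewer cells of a type and less RNA per cell cannot be told apart.

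**Figure D1:**
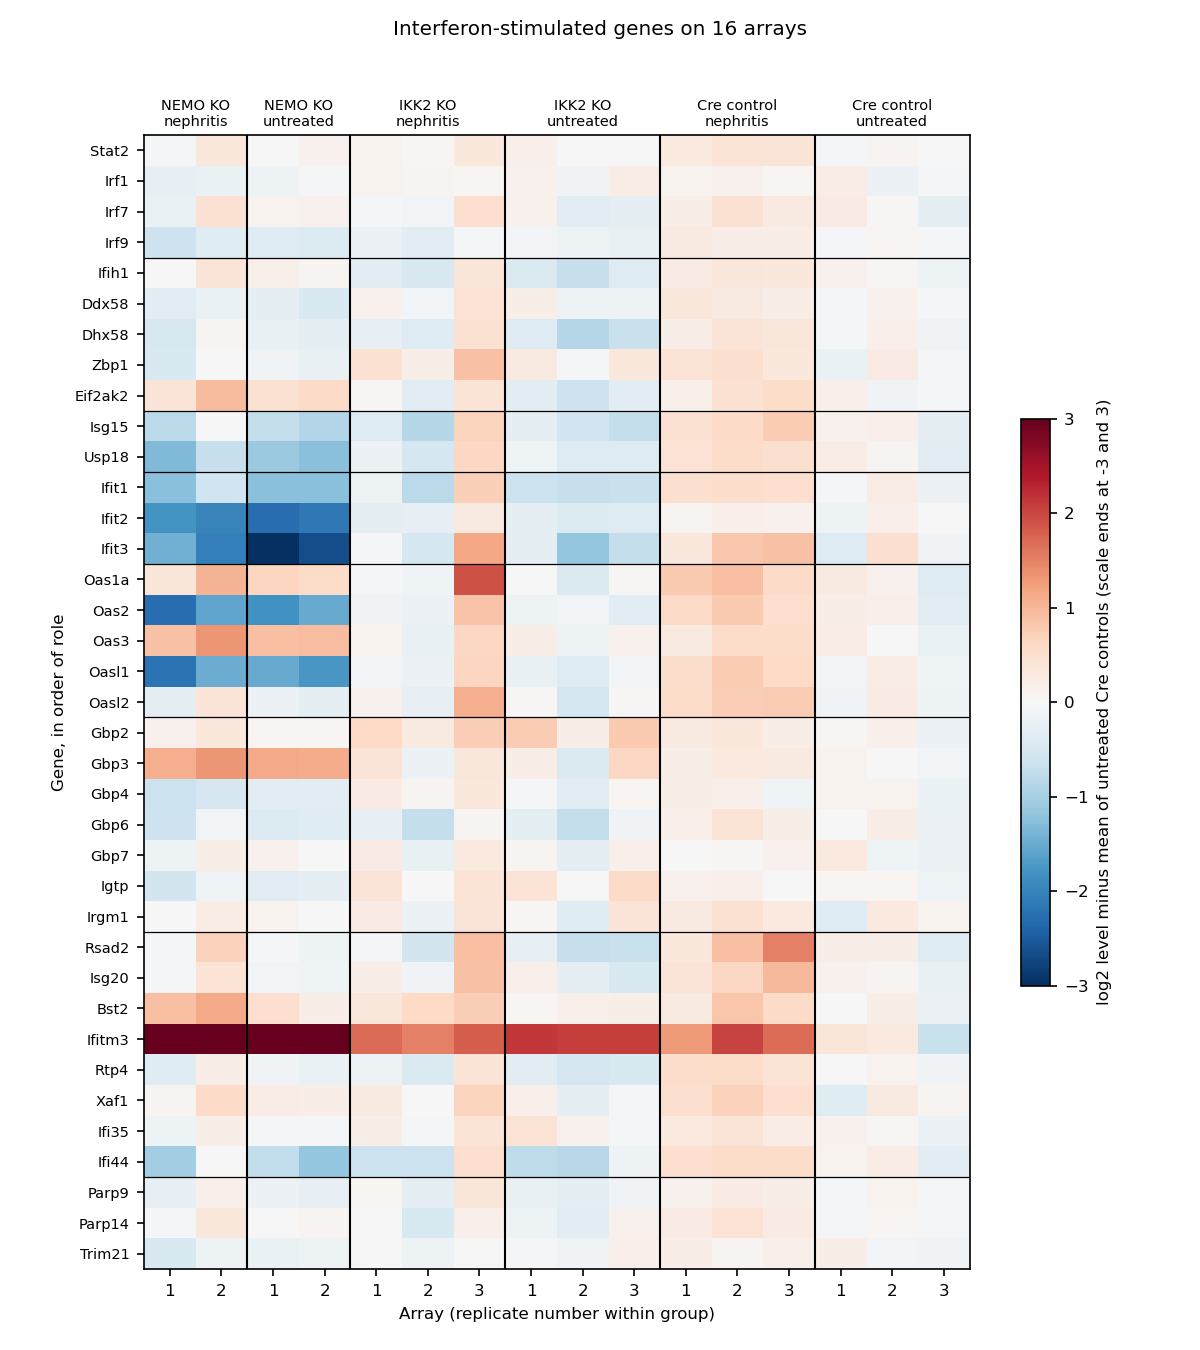
Each row is a gene and each column an array, and the colour gives the log2 level minus the mean of the 3 untreated Cre arrays, on a scale that ends at -3 and 3 and so saturates for Ifitm3 in NEMO knockout cells. The IFIT family, Oas2, Oasl1 and Usp18 are blue on the 4 NEMO knockout arrays, while Ifitm3, Gbp3 and Oas3 are red there, and nephritic IKK2 knockout replicate 3 is redder than the other 2 arrays of its group.

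The interferon-stimulated genes differed in both directions between NEMO knockout and Cre cells. In nephritic NEMO knockout cells 15 fell and 4 rose relative to nephritic Cre controls, and in untreated NEMO knockout cells 7 fell and 3 rose relative to untreated Cre controls. The largest falls were those of the IFIT family, Oas2, Oasl1 and Usp18, and the largest rise that of Ifitm3. These comparisons share no array, and all 10 genes that passed without nephritis passed in the same direction with it, which is 100% of the 10 and 52.6% of the 19. Over all genes tested the corresponding shares were 77.8% and 69.3%. The differences of 28 of the 37 genes (75.7%) had the same sign in both, as had those of 82.0% of all genes, and both NEMO knockout groups lay on slide 3. Many genes of these cells differed between the same groups. Among all genes tested, 48.4% passed with nephritis (18.8% higher and 29.6% lower) and 43.0% without (21.0% higher and 22.0% lower), and the members' shares of 51.4% and 27.0% were near the share of all genes with nephritis and below it without. The members' median difference was -0.44 with nephritis, against -0.14 over all genes, and -0.15 without, against -0.06. Differences were above 0 for 5 of 37 members with nephritis, where 40.0% of all genes were, and for 14 without, where 45.6% were. With nephritis 4 members lay wholly above and 21 wholly below the Cre arrays, against 26.7% and 43.6% of all genes, and without it 6 and 17, against 30.8% and 36.2%.

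**Figure D2:**
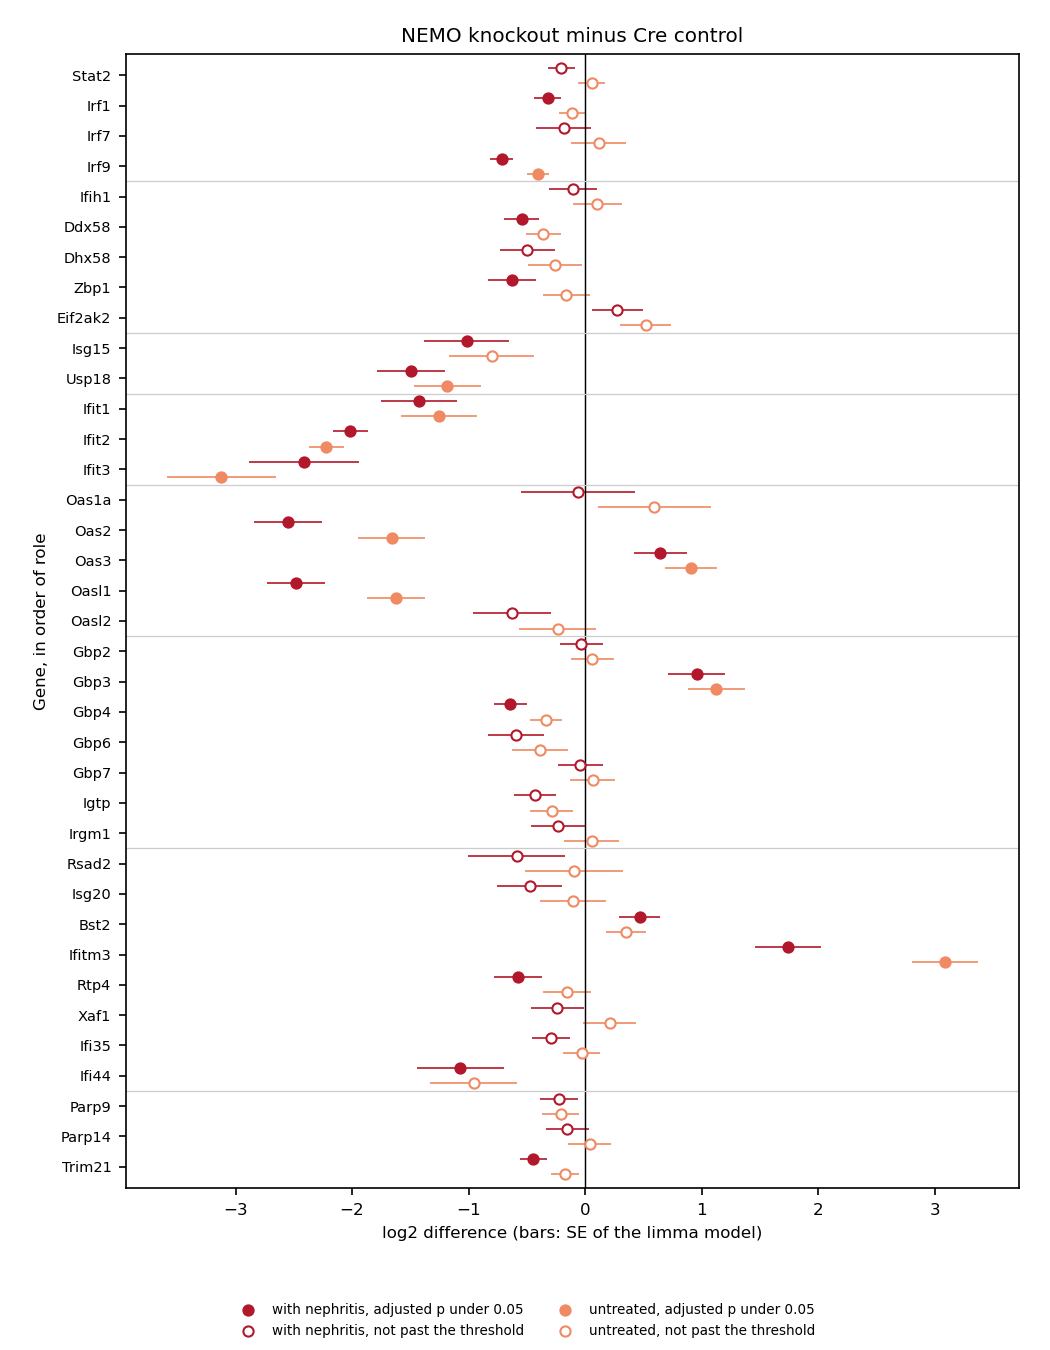
Points are log2 differences of NEMO knockout minus Cre control for each of the 37 genes, with nephritis in dark and without in light colour, bars are the SE of the limma model and filled points passed an adjusted p of 0.05. Ifit3, Ifit2, Oas2 and Oasl1 lie farthest to the left and Ifitm3 farthest to the right in both conditions.

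The IFIT proteins bind foreign RNA and block its translation, and all 3 measured members fell in both conditions. Ifit3 read 1.93 and 1.31 on nephritic and -0.22 and 0.71 on untreated NEMO knockout arrays, against 3.68, 4.18 and 4.24 on nephritic and 2.99, 3.85 and 3.25 on untreated Cre arrays. Each NEMO knockout array thus lay below each Cre array, by far more than the spread within either group. The difference was -2.41 with nephritis (SE 0.47, adjusted p = 0.00139) and -3.12 without (SE 0.47, adjusted p = 0.00026), or 5.32-fold and 8.70-fold lower. Ifit2 read 0.02 and -0.19 on nephritic and -0.49 and -0.34 on untreated NEMO knockout arrays, against 1.88, 1.97 and 1.93 on nephritic and 1.66, 1.96 and 1.80 on untreated Cre arrays. Its groups lay far apart relative to their spread, and it fell by 2.01 with nephritis (adjusted p = 1.93e-06) and by 2.22 without (adjusted p = 1.16e-06). Ifit1 read 0.80 and 1.47 on nephritic and 0.80 and 0.82 on untreated NEMO knockout arrays, against 2.54, 2.58 and 2.56 on nephritic and 2.02, 2.28 and 1.89 on untreated Cre arrays. It fell by 1.42 (adjusted p = 0.00382) and by 1.25 (adjusted p = 0.0088), also without overlap. Ifit2 and Ifit3 are direct neighbours in the order of protein-coding genes on chromosome 19, and 3 such genes lie between Ifit3 and Ifit1.

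The oligoadenylate synthetases respond to double-stranded RNA, and they moved in opposite directions within the family. Oas2 read 2.34 and 3.03 on nephritic and 2.80 and 3.11 on untreated NEMO knockout arrays, against 5.18, 5.40 and 5.12 on nephritic and 4.78, 4.76 and 4.30 on untreated Cre arrays. It fell by 2.55 with nephritis (SE 0.29, adjusted p = 3.15e-05) and by 1.66 without (SE 0.29, adjusted p = 0.000739). Oas3, its direct neighbour on chromosome 5, went the other way. Oas3 read 1.57 and 2.02 on nephritic and 1.58 and 1.61 on untreated NEMO knockout arrays, against 0.96, 1.23 and 1.25 on nephritic and 0.91, 0.66 and 0.49 on untreated Cre arrays. It rose by 0.65 with nephritis (SE 0.23, adjusted p = 0.0331) and by 0.91 without (SE 0.23, adjusted p = 0.00674), and its groups did not overlap. Oasl1, which lacks synthetase activity and in mice restrains the translation of Irf7, read 1.01 and 1.75 on nephritic and 1.73 and 1.5 on untreated NEMO knockout arrays, against 3.75, 4.0 and 3.84 on nephritic and 3.16, 3.44 and 3.1 on untreated Cre arrays. It fell by 2.48 (adjusted p = 1.36e-05) and by 1.62 (adjusted p = 0.000313), with a wide gap between the groups. Its direct neighbour Oasl2 differed by -0.63 and -0.24 and did not pass (adjusted p 0.139 and 0.6), nor did Oas1a at -0.06 and 0.60 (adjusted p 0.927 and 0.351).

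**Figure D3:**
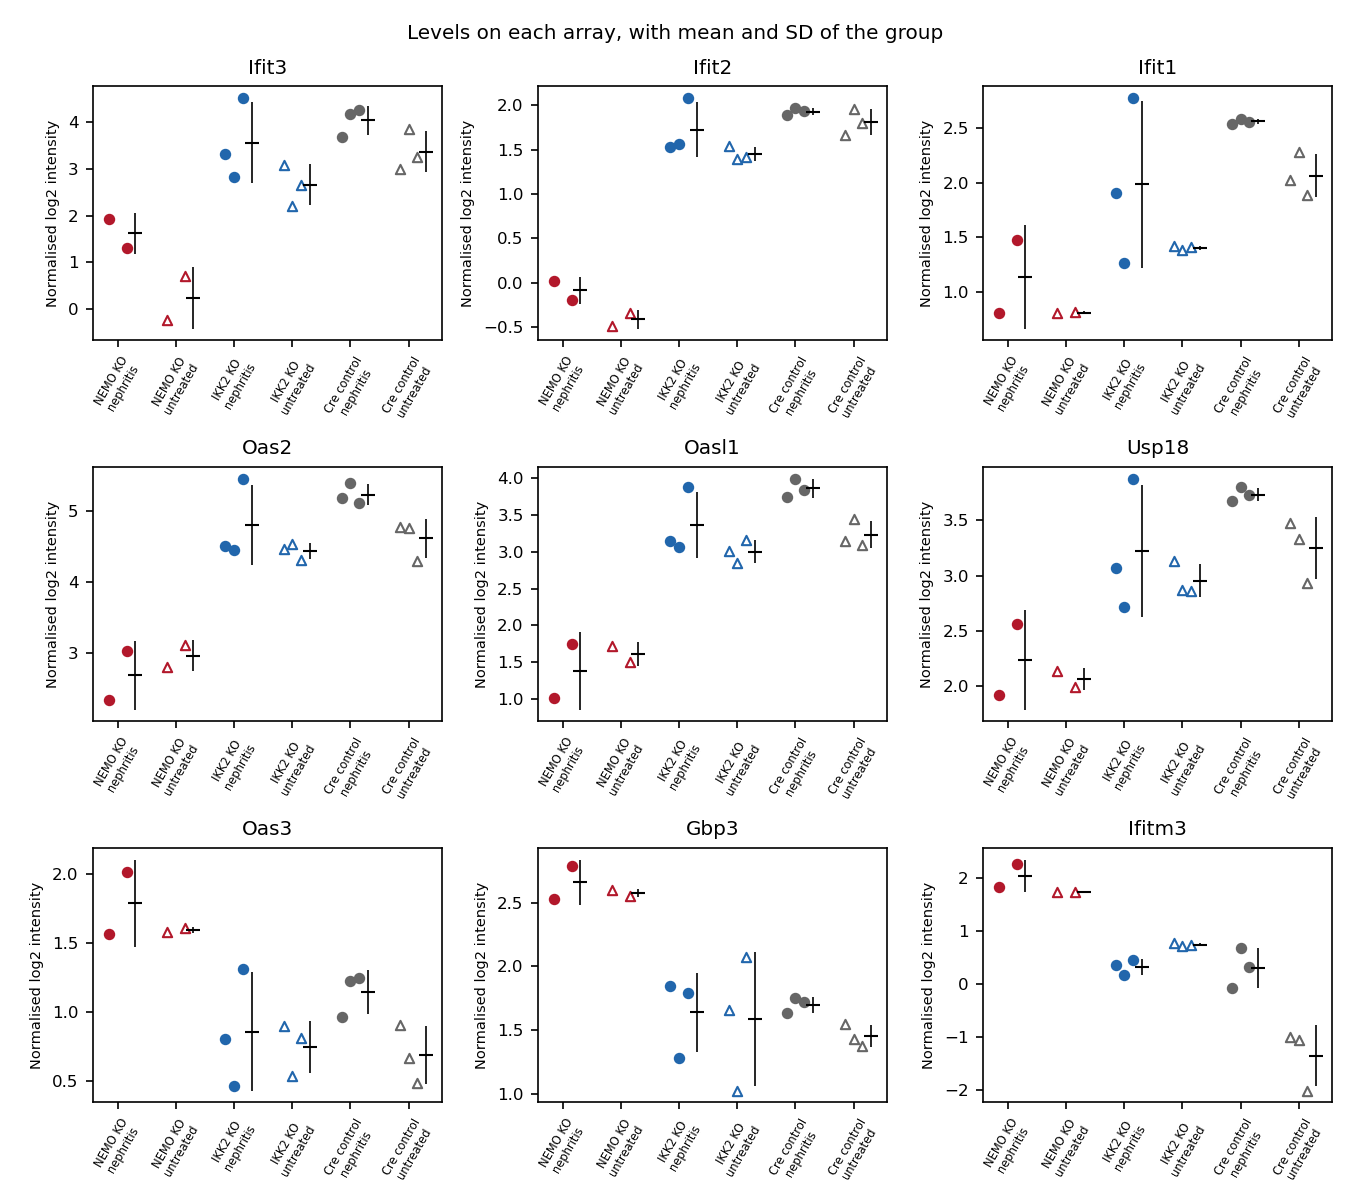
Points are the normalised log2 intensity of 9 genes on each array, by group, with filled points for nephritis and open ones for untreated mice, and the horizontal mark and bar beside them are the mean and SD of the group. NEMO knockout arrays lie below all Cre arrays for Ifit3, Ifit2, Ifit1, Oas2, Oasl1 and Usp18 and above them for Oas3, Gbp3 and Ifitm3.

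ISG15 is a ubiquitin-like protein and USP18 the protease that removes it, which also damps the type I receptor. Usp18 read 1.92 and 2.56 on nephritic and 2.14 and 1.99 on untreated NEMO knockout arrays, against 3.68, 3.80 and 3.73 on nephritic and 3.48, 3.33 and 2.93 on untreated Cre arrays. It fell in both conditions, by 1.49 (SE 0.29, adjusted p = 0.00128) and by 1.18 (SE 0.29, adjusted p = 0.00609). Isg15 read 4.64 and 5.43 on nephritic and 4.73 and 4.57 on untreated NEMO knockout arrays, against 5.91, 6.02 and 6.22 on nephritic and 5.58, 5.60 and 5.18 on untreated Cre arrays. No NEMO knockout array reached a Cre array of its condition, yet the difference passed with nephritis (-1.02, SE 0.36, adjusted p = 0.0367) and not without (-0.80, SE 0.36, adjusted p = 0.0952). The call with nephritis was kept in 9 of 15 alternatives.

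Among the transducers, Irf9, the DNA-binding partner of the STAT proteins, fell in both conditions. It read 4.5 and 4.74 on nephritic and 4.72 and 4.69 on untreated NEMO knockout arrays, against 5.39, 5.30 and 5.31 on nephritic and 5.08, 5.18 and 5.07 on untreated Cre arrays. The difference was -0.72 (SE 0.10, adjusted p = 0.000108) and -0.40 (SE 0.10, adjusted p = 0.00553), a smaller step than in the IFIT family but with little spread. Irf1, a transcription factor best known for interferon gamma responses, read 6.08 and 6.13 on nephritic NEMO knockout arrays, against 6.44, 6.46 and 6.38 on nephritic Cre arrays, and fell by 0.32 (SE 0.12, adjusted p = 0.039). On untreated arrays Irf1 read 6.17 and 6.26 in NEMO knockout cells, against 6.55, 6.15 and 6.29 in Cre controls, which overlapped. The call for Irf1 with nephritis was kept in 4 of 15 alternatives. Stat2, the other partner of Irf9, read 3.71 and 4.08 on nephritic and 3.72 and 3.86 on untreated NEMO knockout arrays, against 4.02, 4.15 and 4.12 on nephritic and 3.68, 3.82 and 3.72 on untreated Cre arrays. Irf7, which amplifies type I interferon production, read 2.16 and 2.81 on nephritic and 2.45 and 2.49 on untreated NEMO knockout arrays, against 2.56, 2.82 and 2.62 on nephritic and 2.59, 2.39 and 2.09 on untreated Cre arrays. Both overlapped between genotypes and did not pass, with differences of -0.20 and 0.06 for Stat2 (adjusted p 0.179 and 0.736) and of -0.18 and 0.12 for Irf7 (adjusted p 0.543 and 0.719).

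Of 5 sensors of foreign nucleic acid, 2 fell in nephritic NEMO knockout cells relative to nephritic Cre controls, and none passed between the untreated groups. Ddx58, which encodes the RNA sensor RIG-I, read 3.94 and 4.09 on nephritic NEMO knockout arrays, against 4.63, 4.57 and 4.49 on nephritic Cre arrays, and fell by 0.55 (SE 0.15, adjusted p = 0.00954). Untreated, Ddx58 read 4.03 and 3.84 in NEMO knockout cells, against 4.22, 4.42 and 4.22 in Cre controls. A second, dimmer Ddx58 probe differed by -0.61 with nephritis and by -0.55 without (unadjusted limma p 0.0009829 and 0.002225). Zbp1, a sensor of Z-form nucleic acid, read 2.90 and 3.34 on nephritic NEMO knockout arrays, against 3.75, 3.83 and 3.67 on nephritic Cre arrays, and fell by 0.63 (SE 0.20, adjusted p = 0.0243). A second Zbp1 probe, nearly as bright, differed by -0.16 with nephritis, within its error, so this fall rests on the probe used. Of 15 alternatives, 7 kept the call. Without nephritis the second Zbp1 probe differed by 0.26 and the probe used by -0.16 (unadjusted limma p 0.2115 and 0.4497). Untreated, Zbp1 read 3.25 and 3.13, against 3.14, 3.60 and 3.30. Eif2ak2, which encodes the RNA-activated kinase PKR, pointed the other way without passing against Cre. It read 1.21 and 1.78 on nephritic and 1.28 and 1.40 on untreated NEMO knockout arrays, against 0.97, 1.29 and 1.38 on nephritic and 0.97, 0.71 and 0.79 on untreated Cre arrays (differences 0.28 and 0.52, adjusted p 0.309 and 0.0723). Ifih1 and Dhx58 passed in neither condition, with differences from -0.50 to 0.11.

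The guanylate-binding proteins and IRG GTPases, which act on vacuoles of intracellular parasites, mostly did not pass. Gbp3 was the exception that rose in both conditions. It read 2.53 and 2.79 on nephritic and 2.60 and 2.56 on untreated NEMO knockout arrays, against 1.63, 1.75 and 1.72 on nephritic and 1.55, 1.43 and 1.38 on untreated Cre arrays. The rise was 0.96 (SE 0.24, adjusted p = 0.00713) and 1.12 (SE 0.24, adjusted p = 0.00309), and no arrays overlapped. Its direct neighbour on chromosome 3, Gbp7, differed by -0.04 and 0.07, and Gbp2, from which 1 gene separates it, by -0.03 and 0.06. Gbp4 read 4.05 and 4.20 on nephritic and 4.37 and 4.35 on untreated NEMO knockout arrays, against 4.88, 4.86 and 4.56 on nephritic and 4.81, 4.79 and 4.49 on untreated Cre arrays. Against Cre, Gbp4 fell by 0.64 in nephritic cells (SE 0.14, adjusted p = 0.00299), while -0.34 in untreated cells did not pass (adjusted p = 0.0747).

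Of 8 other antiviral effectors, 2 rose and 2 fell in nephritic NEMO knockout cells relative to nephritic Cre controls, and 1 rose between the untreated groups. Ifitm3, a membrane protein that hinders viral fusion, had the largest rise of all members. It read 1.83 and 2.26 on nephritic and 1.73 and 1.74 on untreated NEMO knockout arrays, against -0.08, 0.68 and 0.31 on nephritic and -0.99, -1.05 and -2.02 on untreated Cre arrays. The rise was 1.74 with nephritis (SE 0.28, adjusted p = 0.000396) and 3.09 without (SE 0.28, adjusted p = 6.9e-06), or 3.34-fold and 8.51-fold. The Ifitm family is abundant in myeloid cells. Mean marker levels of macrophages, dendritic cells, B cells, neutrophils, CD8 T and NK cells and erythroid cells stood above untreated Cre on the same arrays (values above). On nephritic Cre arrays macrophage markers stood above untreated Cre as well. The part of such cells in the rise of Ifitm3 was not tested. Bst2, which tethers budding virus, read 5.36 and 5.61 on nephritic and 4.97 and 4.66 on untreated NEMO knockout arrays, against 4.72, 5.29 and 5.03 on nephritic and 4.46, 4.64 and 4.29 on untreated Cre arrays. It rose by 0.47 with nephritis (SE 0.17, adjusted p = 0.0428), with a narrow gap between the groups, and its difference of 0.35 without nephritis did not pass (adjusted p = 0.123). Ifi44 fell by 1.07 and Rtp4 by 0.58 with nephritis (limma adjusted p 0.0329 and 0.0379), calls that 8 and 4 of 15 alternatives kept. Of the PARP and TRIM genes, Trim21, a cytosolic antibody receptor, fell by 0.44 between the nephritic groups (SE 0.12, adjusted p = 0.00812). Parp9 and Parp14 did not pass.

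The number of calls with nephritis varied as single arrays were left out. Without nephritic Cre replicate 1 there were 12 (2 higher and 10 lower). Omitting an array lowers the power for every gene, and the share of all genes that passed was not tallied for this fit. The drop from 19 thus cannot be read as a trait of the members. Without nephritic NEMO knockout replicate 1 the members' median difference was -0.22, and without replicate 2 it was -0.62. Nephritic NEMO knockout replicate 2 read above replicate 1 for 35 of the 37 genes, with a mean over the genes of 0.12, against -0.30, relative to untreated Cre. The falls of Ifit2, Ifit3, Oas2, Oasl1, Usp18 and Irf9 held in both conditions under all 15 alternatives, and those of Ifit1 in 14 of 15 in each.

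Nephritic NEMO knockout cells were also set against nephritic IKK2 knockout cells, on slide 3 and slide 1, so that genotype and slide cannot be told apart here either. Of the 37 genes, 10 were lower and 5 higher in NEMO knockout cells, where 46.1% of all genes passed (19.0% higher and 27.1% lower), so the members' share of 40.5% was again near that of all genes. Differences were above 0 for 12 members, where 42.6% of all genes were, and 4 members lay wholly above and 11 wholly below, against 29.8% and 43.1% of all genes. The genes at the ends were those of the comparison with Cre, which shares the NEMO knockout arrays. On nephritic IKK2 knockout arrays, Ifit3 read 3.32, 2.83 and 4.52, Ifit2 1.52, 1.56 and 2.09, and Ifit1 1.91, 1.26 and 2.78. All 3 lay above the nephritic NEMO knockout arrays but for a single overlap in Ifit1. The differences were -1.94 for Ifit3 (adjusted p = 0.00555), -1.81 for Ifit2 (adjusted p = 3.59e-06) and -0.85 for Ifit1, which did not pass (limma adjusted p = 0.0514). Oas2 read 4.51, 4.45 and 5.46, Oasl1 3.15, 3.07 and 3.88 and Usp18 3.07, 2.72 and 3.88 in nephritic IKK2 knockout cells, and NEMO knockout cells were lower by differences of -2.12, -1.98 and -0.98 (limma adjusted p 0.000121, 6.89e-05 and 0.0154). Oas3 read 0.80, 0.46 and 1.31, Gbp3 1.85, 1.28 and 1.79 and Ifitm3 0.35, 0.17 and 0.46, and NEMO knockout cells were higher by 0.93, 1.02 and 1.72 (limma adjusted p 0.0054, 0.00516 and 0.000439). Both sets were thus apart without overlap. Smaller differences passed for Gbp4 (-0.78), Zbp1 (-0.72), Igtp (-0.59), Ddx58 (-0.43), Irf9 (-0.30), Eif2ak2 (0.62) and Bst2 (0.47), with limma adjusted p between 0.000838 and 0.0448. Second probes of Ddx58 (dimmer) and Zbp1 (nearly as bright) differed by -0.13 and -0.20 (unadjusted limma p 0.389 and 0.329), so these 2 calls rest on the probes used. Of 14 alternatives, all kept the call for Gbp4, 11 for Zbp1, 10 for Igtp and for Eif2ak2, 9 for Irf9 and for Bst2, and 7 for Ddx58. Eif2ak2 overlapped between the groups, at 1.21 and 1.78 against 0.86, 0.51 and 1.23. With a variance estimated from these 5 arrays alone, 8 genes passed, and the share of all genes was not tallied for that fit. The members' median difference was -0.14 with all arrays. It was 0.10 without nephritic NEMO knockout replicate 1 and -0.35 without replicate 2.

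Few of these genes passed between IKK2 knockout and Cre cells. In nephritic IKK2 knockout cells 1 of 37 passed against nephritic Cre controls, with 2.58% of all genes passing (0.995% higher and 1.59% lower), and in untreated IKK2 knockout cells 2 of 37 passed, against 14.6% of all genes (10.0% higher and 4.52% lower). With nephritis the gene was Irf9, which read 4.94, 4.76 and 5.04 on IKK2 knockout arrays, against 5.39, 5.30 and 5.31 on Cre arrays. It fell by 0.42 (SE 0.09, adjusted p = 0.0275). No array overlapped, and this comparison lies within slide 1, but a fit to the arrays of slide 1 alone gave an adjusted p of 0.133, and over all alternatives it ranged from 0.0232 to 0.162, with 6 of 18 passing. Untreated, Irf9 read 5.02, 4.95 and 4.88 in IKK2 knockout cells, against 5.08, 5.18 and 5.07 in Cre controls, and did not pass (-0.16, adjusted p = 0.232). The probes of Ddx58 disagreed in size here. The brighter one differed by -0.12 with nephritis and -0.05 without. The second, dimmer one differed by -0.49 and -0.43 (unadjusted limma p 0.002327 and 0.005163).

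Without nephritis, Ifitm3 rose in IKK2 knockout cells, to 0.77, 0.72 and 0.73, against -0.99, -1.05 and -2.02 in Cre controls. The difference of 2.10 (SE 0.25, adjusted p = 0.000667) is 4.27-fold, and every IKK2 knockout array lay above every Cre array. With nephritis the groups overlapped, at 0.35, 0.17 and 0.46 against -0.08, 0.68 and 0.31, with a difference of 0.02 (SE 0.25). Gbp2, a guanylate-binding protein, read 4.17, 3.59 and 4.20 on untreated IKK2 knockout arrays, against 3.44, 3.56 and 3.25 on untreated Cre arrays, and rose by 0.57 (SE 0.16, adjusted p = 0.0381), with IKK2 knockout replicate 2 only just above the highest Cre array. The call for Gbp2 was kept in 5 of 18 alternatives, with adjusted p of up to 0.163. Slide 2 holds 1 untreated IKK2 knockout array, replicate 3, whose level minus the mean of the 3 Cre arrays was 2.09 for Ifitm3 and 0.78 for Gbp2, and with a lone array taken to vary like the Cre arrays neither passed (limma adjusted p 0.156 and 0.152). Macrophage markers on the untreated IKK2 knockout arrays stood 2.56 to 3.24 above untreated Cre, and 9 of the 9 passed, as did 9 of 10 B cell markers.

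Beyond the calls, most members read lower in IKK2 knockout cells. With nephritis 30 of 37 differences were below 0, where 44.5% of all genes lay above 0, and the members' median was -0.25 against -0.03 over all genes. Groups did not overlap for 5 members, all lower, against 15.2% of all genes wholly lower and 9.7% wholly higher. Without nephritis 26 of 37 were below 0, where 56.4% of all genes lay above 0, with a median of -0.15 against 0.05, and 9 members lay wholly lower and 2 wholly higher, against 11.1% and 18.9% of all genes. This shift leaned on untreated IKK2 knockout replicate 2, the lowest of its group for 29 genes. With that array left out, 18 of the 37 were above 0 and the median was -0.004, a smaller shift that follows from the choice. Untreated IKK2 knockout replicates 1 and 2 also lay on another slide than the untreated Cre arrays. With the slide as a block, 15 were above 0 and the median was -0.07. Nephritic IKK2 knockout replicate 3 read far above its group. It was the highest of the 3 arrays for 35 of 37 genes, and its mean over them was 0.58 above untreated Cre, against 0.08 and -0.18 for replicates 1 and 2. The gap was widest for Oas1a, at 3.75, 3.66 and 5.7. For Isg15 the 3 arrays read 5.07, 4.59 and 6.12, against 5.91, 6.02 and 6.22 on nephritic Cre arrays. Its macrophage, B cell, dendritic cell and neutrophil markers, at 1.82, 1.81, 1.81 and 2.88, were not above those of the other 2 arrays except for B cells, where replicate 1 was lower at 1.54. Since replicate 3 was singled out by its high values for these same genes, lower differences without it follow from the choice and are given as values. Without replicate 3, 34 of the 37 differences were below 0, the median was -0.49, and 5 genes passed, all lower (Isg15, Ifit1, Rtp4, Irf9 and Ifih1), where 0.859% of all genes fell. Leaving out any of the other 5 arrays of this comparison gave 0 such genes.

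**Figure D4:**
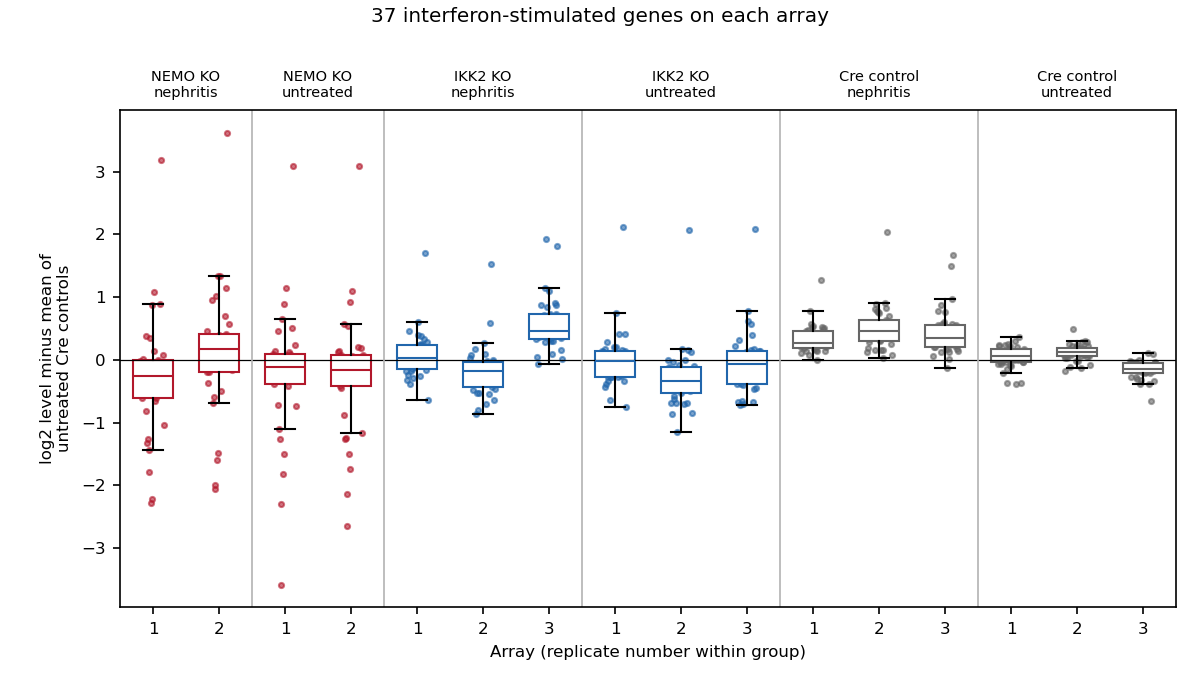
Each box and its points show the 37 genes on 1 array, as log2 level minus the mean of the 3 untreated Cre arrays, with the median, the quartiles and Tukey whiskers. Nephritic IKK2 knockout replicate 3 lies near the nephritic Cre arrays, above replicates 1 and 2 of its own group, and nephritic NEMO knockout replicate 2 above replicate 1.

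Nephritis was then compared with no nephritis within each genotype. In NEMO knockout cells no member passed, where 0.402% of all genes did, and 28 of 37 differences were above 0 (44.7% of all genes), with a median of 0.09 against -0.02. The 6 members wholly above and 2 wholly below their untreated arrays compare with 19.6% and 26.5% of all genes. The sign rested on single arrays, since 35 of the 37 were above 0 without nephritic replicate 1 and 8 without nephritic replicate 2. The largest difference was that of Ifit3, at 1.38 (SE 0.52, adjusted p = 0.593), and that of Bst2 was 0.67 (SE 0.19, adjusted p = 0.329). These were the only 2 with an unadjusted limma p under 0.05, where 6.37% of all genes had one, and this comparison lies within slide 3.

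In IKK2 knockout cells no member passed either, where 0.443% of all genes did, and 4 reached an unadjusted limma p under 0.05 (Dhx58, Bst2, Gbp4 and Eif2ak2), against 14.9% of all genes. The differences of 31 genes were above 0, where 51.2% of all genes were, and the median was 0.28 against 0.01. Without nephritic replicate 3, 24 were above 0 (49.4% of all genes) and the median was 0.05. Only 3 members lay wholly above and 1 wholly below their untreated arrays, against 9.03% and 9.17% of all genes.

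In Cre controls all 37 differences were above 0 (35 to 37 under 4 other scalings), where 67.7% of all genes were, with a median of 0.36 against 0.10. The nephritic arrays lay wholly above the untreated ones for 26 members and wholly below for none, against 20.8% and 8.72% of all genes. All 5 OAS genes and all 8 other effectors were among the 26. Only Ifitm3 passed, where 4.03% of all genes did. It rose by 1.66 (SE 0.25, adjusted p = 0.0107), or 3.16-fold. Nephritic replicate 1, the lowest of its group at -0.08, was also the lowest for macrophage markers at 0.36, against 2.32 and 2.04 on replicates 2 and 3. The same array was lowest for B cell, dendritic cell, CD8 T and NK cell and erythroid markers too. It was not lowest for neutrophil or T cell markers or immediate early and stress genes. Of the nephritic NEMO knockout arrays, replicate 2 read higher for Ifitm3 (2.26 against 1.83) and lower for macrophage markers (3.12 against 3.66). The part of such cells was not tested. Bst2 (0.55, adjusted p = 0.0669) and Stat2 (0.36, adjusted p = 0.0766) were next after Ifitm3, and 13 members reached an unadjusted limma p under 0.05, or 35.1% against 24.7% of all genes. The nephritic and untreated Cre arrays were on different slides. With the slide as a block, which rests on the IKK2 knockout arrays of both slides, no member passed, Ifitm3 differed by 1.64 (adjusted p = 0.239) and 36 of 37 differences were above 0.

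**Figure D5:**
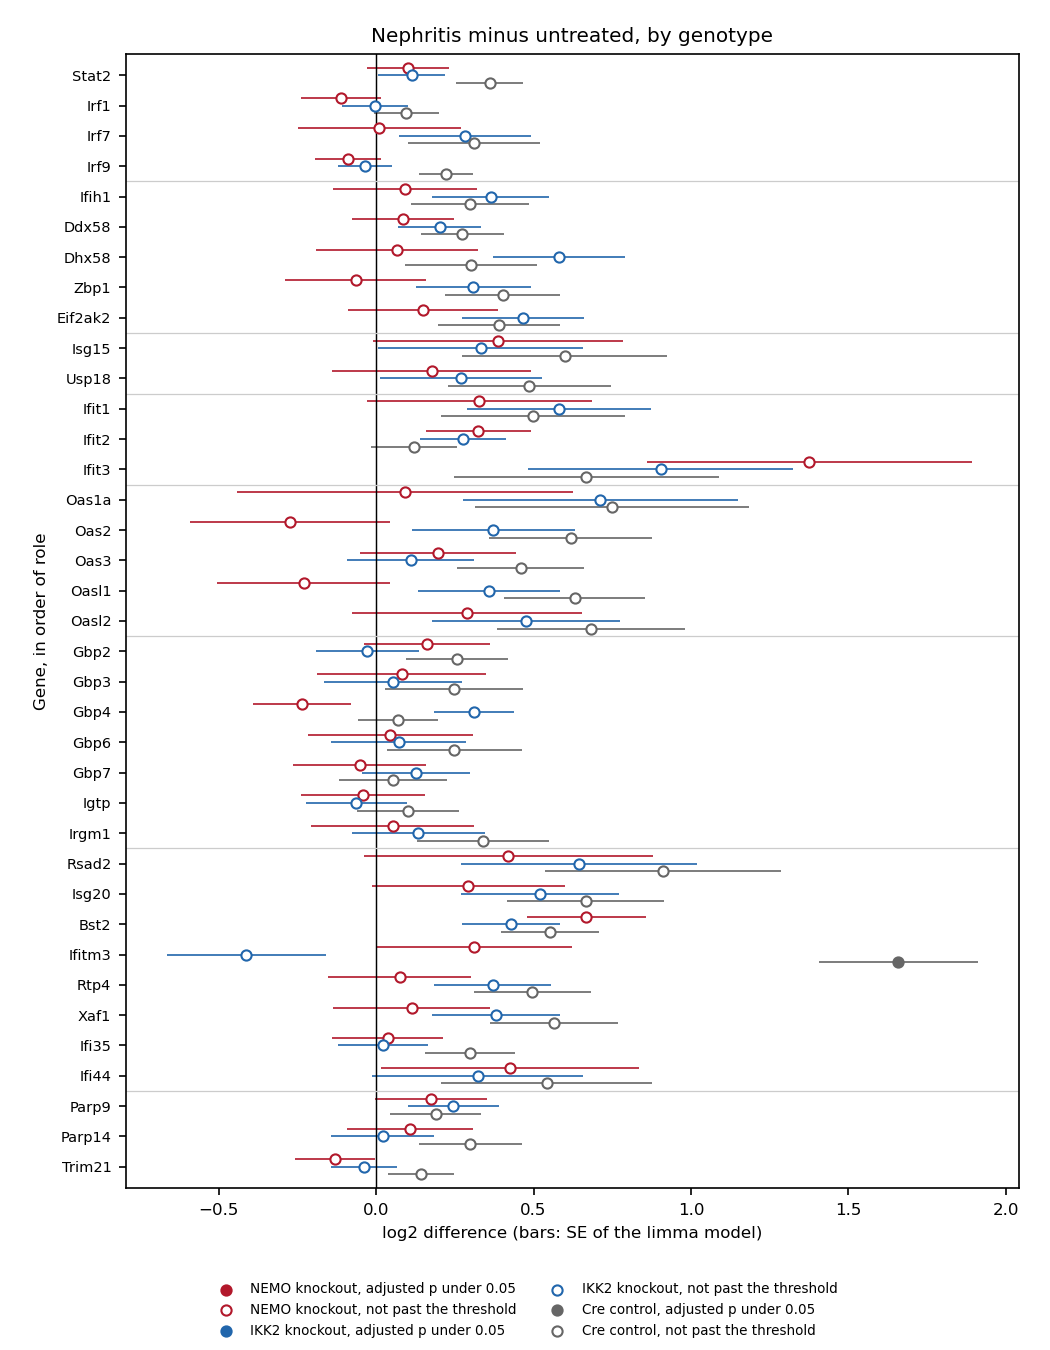
Points are log2 differences of nephritic minus untreated mice for each of the 37 genes in NEMO knockout, IKK2 knockout and Cre control cells, bars are the SE of the limma model, and the filled point, Ifitm3 in Cre controls, alone passed an adjusted p of 0.05. The Cre differences lie right of 0 for all 37 genes, and for 35 to 37 under other scalings.

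The responses to nephritis were tested against each other as contrasts of their own. Between IKK2 knockout and Cre cells, 1 member differed, Ifitm3, whose difference with nephritis was -0.41 in IKK2 knockout cells and 1.66 in Cre controls, so that the responses differed by -2.07 (SE 0.36, adjusted p = 0.0364), where 1.13% of all genes passed. The difference of responses was above 0 for 9 members, where 38.8% of all genes were. In 12 of 23 alternatives that call held, and with the slide as a block it did not (adjusted p = 0.0907). Between NEMO knockout and Cre cells no member differed, where 0.266% of all genes did. Of the 37 differences of response, 34 were below 0 (31.3% of all genes were above 0), with a median of -0.26 against -0.13. The size of this shift leaned on single arrays, while the median stayed below 0. Without nephritic NEMO knockout replicate 1, 15 were above 0 and the median was -0.04, and without replicate 2 these were 2 and -0.48. The nephritic and untreated Cre arrays also lay on different slides. In the fit to all arrays, an unadjusted limma p under 0.05 was reached by 3, Ifitm3 (-1.35), Oasl1 (-0.86) and Irf9 (-0.31), against 10.1% of all genes. Between NEMO and IKK2 knockout cells no member differed, where 0.252% of all genes did, and Gbp4 alone (-0.55) reached an unadjusted limma p under 0.05, against 10.8% of all genes. The difference was above 0 for 12 members, where 48.1% of all genes were.

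The genes upstream and around the members were read from lists of 17 receptor, Janus kinase and feedback genes, 13 genes of interferons and their induction, and 35 other interferon-inducible genes. In nephritic NEMO knockout cells, 4 of the 17 rose and 5 fell relative to Cre, and in untreated ones likewise 4 rose and 5 fell. The largest differences that passed were those of Irf8, a myeloid and B cell factor (2.34 with nephritis and 2.38 without), and of Ifngr2, a chain of the interferon gamma receptor (-2.33 and -1.85). With nephritis Socs3, a feedback inhibitor, fell by 0.90, and without it Irf4 rose by 1.0. All of these had limma adjusted p under 0.05, with the highest at 0.018 for Irf8. Among the 13, 4 rose and 2 fell in each condition. Ifng, the gene of interferon gamma, rose by 3.98 and 3.41 (limma adjusted p 0.000101 and 0.000331), on arrays where the mean of the CD8 T and NK cell markers, cells that also express Ifng, lay 1.15 to 1.18 and 0.62 to 0.96 above untreated Cre, whose part was not tested. Irf5 rose by 1.64 and 2.28, and Ikbke, a kinase of interferon induction, fell by 1.0 and by 0.97. Among the 35 others, 7 rose and 11 fell with nephritis, and 6 rose and 7 fell without. Ifitm2, a relative of Ifitm3, rose by 2.97 and 4.93 and Ifitm1 by 2.67 and 4.75, while the chemokine gene Cxcl10 rose by 2.56 with nephritis and Slfn8 fell by 1.09 without (limma adjusted p between 1.01e-06 and 0.00502). Among all genes, 48.4% passed with nephritis and 43.0% without.

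Against IKK2 knockout cells with nephritis, 6 of the 17 were higher and 5 lower in NEMO knockout cells, led by Ifngr2 (-2.18), Socs3 (-1.5) and Irf4 (0.97), 6 of the 13 were higher and 2 lower, led by Ifng (2.84), Irf5 (1.66) and the adaptor gene Ticam1 (0.84), and 9 of the 35 were higher and 9 lower, led by Ifitm2 (2.55), Ifitm1 (2.54) and Cxcl10 (2.04). The highest limma adjusted p among these was 0.0175. Among all genes, 46.1% passed in this comparison (19.0% higher and 27.1% lower). In nephritic IKK2 knockout cells relative to Cre, 3 of the 17 rose and 1 fell, and the feedback inhibitors Socs1 (1.18, adjusted p = 0.0122) and Socs3 (0.60, adjusted p = 0.0142) and the receptor gene Ifngr1 (0.49, adjusted p = 0.0196) led. Of the 13, the adaptor gene Traf3 alone passed (-0.54), and of the 35, Ifi27l2a alone (-0.69), where 2.58% of all genes passed. In untreated IKK2 knockout cells, 1 of the 17 rose and 1 fell (Ptpn6 0.36 and Ifnar1 -0.51), 2 of the 13 rose and 1 fell (Irf5 1.41, Myd88 0.42 and Traf3 -0.43), and 2 of the 35 rose and 3 fell, led by Ifitm2 (2.72), Ifitm1 (2.53) and Ly6e (-0.65). Among all genes, 14.6% passed there (10.0% higher and 4.52% lower).

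With nephritis alone, Ifitm2 rose in Cre controls (2.13, adjusted p = 0.00786), Socs3 rose in IKK2 knockout cells (0.71, adjusted p = 0.0192), and no gene of the 3 lists passed in NEMO knockout cells. Among all genes, 4.03%, 0.443% and 0.402% passed in these comparisons. Ifitm2 was also the single gene of the lists whose response differed between IKK2 knockout and Cre cells, by -2.30 (SE 0.42, adjusted p = 0.0381), beside the -2.07 of Ifitm3.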

How the data were processed

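Single-colour (Cy3) Agilent arrays of 16 samples were used, with spot intensity values deposited by the authors as Feature Extraction output, version 10.7.3.1 per the file headers and 10.5 per the submitters' processing notes. The files name build mm9, and names and promoters came from RefSeq on GRCm38.p6. Of 55681 probes, 27235 had 1 gene symbol, 0 several and 28446 none, and probes of Mx1 and Mx2 were not named. Processed intensities of the spots of a probe were averaged, taken to log2, and centred on the 75th percentile of each array's non-control probes. Of a gene's probes that stood well above background on 2 or more arrays, the brightest on average was used, which left 14675 genes. limma 3.58.1 (R 4.3.3; tables and figures with Python 3.11.15, numpy 2.4.6, pandas 2.3.3 and matplotlib 3.10.9) fitted 6 group means to all arrays, with Benjamini-Hochberg adjustment over all genes. The deposited matrix of log2 values of the same arrays, whose median lay between 5.65 and 5.68 per array, was an alternative whose scale of normalization and centring are unknown here, and its columns follow the scanner intensities in direction.

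Spots well above background made up 48.9% to 59.8% per array. The normexp alternative used median rather than mean spot signals, since mean signals are not among the columns used here. Other alternatives were the percentile over detected probes, quantile normalization, the filter on dim probes, the mean of all probes, the arrays compared alone, slide and replicate blocks, and single arrays left out. The members and lists were chosen with earlier results of these data known. All members are described by role. In a comparison, members past an adjusted p of 0.05 are named, the 12 with the largest absolute difference where there are more, and values per array are given for the members that passed most often (up to 15) and for Stat2, Irf1, Irf7, Irf9 and Isg15. Pathway genes are given as counts with the 3 largest differences that passed. The fit was tested on simulated data.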

Additional observations from a re-analysis of the deposited data

Results flagged for a closer look

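The response of Ifitm3 to nephritis differed between IKK2 knockout and Cre cells by -2.07 in a test of that difference (limma adjusted p = 0.0364). The nephritic minus untreated difference was -0.41 in IKK2 knockout cells, which did not pass, and 1.66 in Cre controls. Between NEMO and IKK2 knockout cells, the nephritic arrays of Gbp4 lay below the untreated ones in NEMO knockout cells and above them in IKK2 knockout cells, a difference of responses of -0.55 that did not pass in the model (limma adjusted p = 0.319). Ifitm3 moved in opposite directions in the same pair of genotypes, above the untreated arrays in NEMO knockout cells and below them in IKK2 knockout cells, a difference of 0.73 that did not pass (limma adjusted p = 0.563). Levels of cell type markers on these arrays were given above, and their part in the Ifitm3 differences was not tested.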

How the results depend on the processing

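No call reversed its direction under any alternative. For nephritis in Cre controls (1 gene), 0 passed with the arrays compared alone and 0 with the slide as a block, and 1 to 2 with single arrays left out, 2 without nephritic replicate 1. For untreated IKK2 knockout against Cre (2 genes), 1 passed with normexp, the authors' matrix, no filter, the slide block, the replicate block or both Cre arrays that stand apart left out (an alternative chosen after seeing the data), 0 on 1 slide alone, and 1 to 2 with single arrays left out. For nephritic IKK2 knockout against Cre (1 gene), 0 passed with normexp, the matrix, no filter, the arrays compared alone, 1 slide alone, the replicate block or both Cre arrays left out, and 0 to 5 with single arrays left out. For the IKK2 minus Cre difference of responses (1 gene), 0 passed with no filter, the arrays compared alone, the slide block, the replicate block or both Cre arrays left out, and 0 to 1 with single arrays left out. For nephritic NEMO knockout against Cre (19 genes), 10 to 18 passed with single arrays left out and 15 with both Cre arrays left out. Against nephritic IKK2 knockout (15 genes), 8 passed with the arrays compared alone and 9 to 14 with single arrays left out. For untreated NEMO knockout against Cre (10 genes), 9 to 11 passed with single arrays left out. The share of all genes that passed was not tallied for most of these alternatives, so the counts cannot be read as a trait of the members. The causes were not tested. Replicate numbers did not pair the samples, since residuals correlated at -0.20 to 0.13 for the same number and -0.16 to 0.27 for different ones, and of 49 calls the replicate block kept 40. With 2 arrays in each NEMO group, the array left in a group by such an omission is assumed to vary like the other groups.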
